A study of Macaca mulatta with 13 samples.

Results

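The genes described here encode the subunits of RNA polymerases I, II and III and the general factors that bring these enzymes to promoters. A probe set was a member when the array's annotation paired it with 1 gene symbol that starts with POLR1, POLR2, POLR3, GTF2 or GTF3, or with TAF followed by a digit. The rule found 87 of 52707 probe sets, for 52 of 14132 named genes; 1 further probe set that carries several symbols was left out. The samples were RNA of blood mononuclear cells, a mixture of lymphocytes and monocytes, from rhesus macaques aged 4 months. The groups were animals labelled as maternally reared (5 arrays), peer reared (4 arrays) and surrogate-peer reared (4 arrays), called maternal, peer and surrogate-peer here. The labels give no other treatment or genotype for any group, and they do not describe the housing behind the word surrogate-peer. The series asks whether expression differs with early rearing. No label says that each array is a separate animal; where 1 animal gave several samples, the p-values would measure technical spread only.

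RNA polymerase I transcribes the large ribosomal RNA precursor, polymerase II transcribes messenger RNA, and polymerase III transcribes transfer RNA, 5S ribosomal RNA and other short RNAs. The enzymes share a set of small subunits, and the pair POLR1C and POLR1D is common to polymerases I and III. Each enzyme depends on factors that recognise the promoter: SL1 for polymerase I, TFIID with TFIIA, TFIIB, TFIIE, TFIIF and TFIIH for polymerase II, and TFIIIA, TFIIIB and TFIIIC for polymerase III. The TBP-associated factors, or TAFs, are subunits of SL1 and TFIID. Output of all 3 enzymes increases when a resting lymphocyte is activated to grow and divide.

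Values are log2 signals as deposited, so a difference of 1 is a 2-fold change. A probe set was tested where its mean over the 13 arrays exceeded the median of such means, 6.04. That left 41 of the 52 genes at their brightest probe set, the one of highest mean, and 61 of the 87 probe sets. The 11 untested genes were POLR2A, POLR2C, POLR2L, GTF2A1L, GTF2F1, GTF2H2, GTF2IRD1, TAF1L, TAF3, TAF7L and TAF8. Their differences between the non-maternal groups and the maternal group lay between -0.125 and 0.262. "Called" below means a two-sided limma p below 0.05 after Benjamini-Hochberg adjustment over all tested probe sets. Errors of differences are standard errors of that fit.

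Compared with maternal arrays, the peer and surrogate-peer arrays as 1 set had higher signals for 9 of the 41 tested genes and lower signals for 0. Over all tested genes 6.30% were called higher and 1.69% lower; for the members these shares were 22.0% and 0%. At an unadjusted p under 0.05, 13 members were higher and 1 was lower, 34.1% of the 41, against 29.7% of all tested genes. The called genes were POLR1C, POLR3B, TAF1A, TAF2, TAF4, GTF2A1, GTF2E1, GTF3C2 and GTF3C3. POLR2K and TAF10 were called at a dimmer probe set but not at the brightest. In all, 12 of 61 tested probe sets were called, against 6.64% of all tested probe sets called higher. The median difference of the 41 genes was 0.15, against 0.00513 over all tested genes, and 29 of the 41 (70.7%) were positive, against 50.7% of all tested genes. After centring each array on its median or after quantile normalization 26 (63.4%) were positive, against 42.5% and 46.2% of all tested probe sets. The median was 0.09 in both, against -0.055 and -0.0221 over all tested probe sets. Without maternal array 5 the median was 0.07 and 24 genes (58.5%) were positive, against 0.00138 and 50.3% over all tested probe sets. The 24 general factors had 7 called and a median of 0.15. The 17 polymerase subunits had 2 called and the same median to 2 decimals. With maternal array 4, maternal array 5 or peer array 1 left out, 0 of the 41 genes were called. Over all tested probe sets 30, 60 and 309 were called in these fits, against 2107 with all arrays. In a mixed sample such as this a smaller share of cells of a type and less RNA per cell cannot be told apart.

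**Figure D1:**
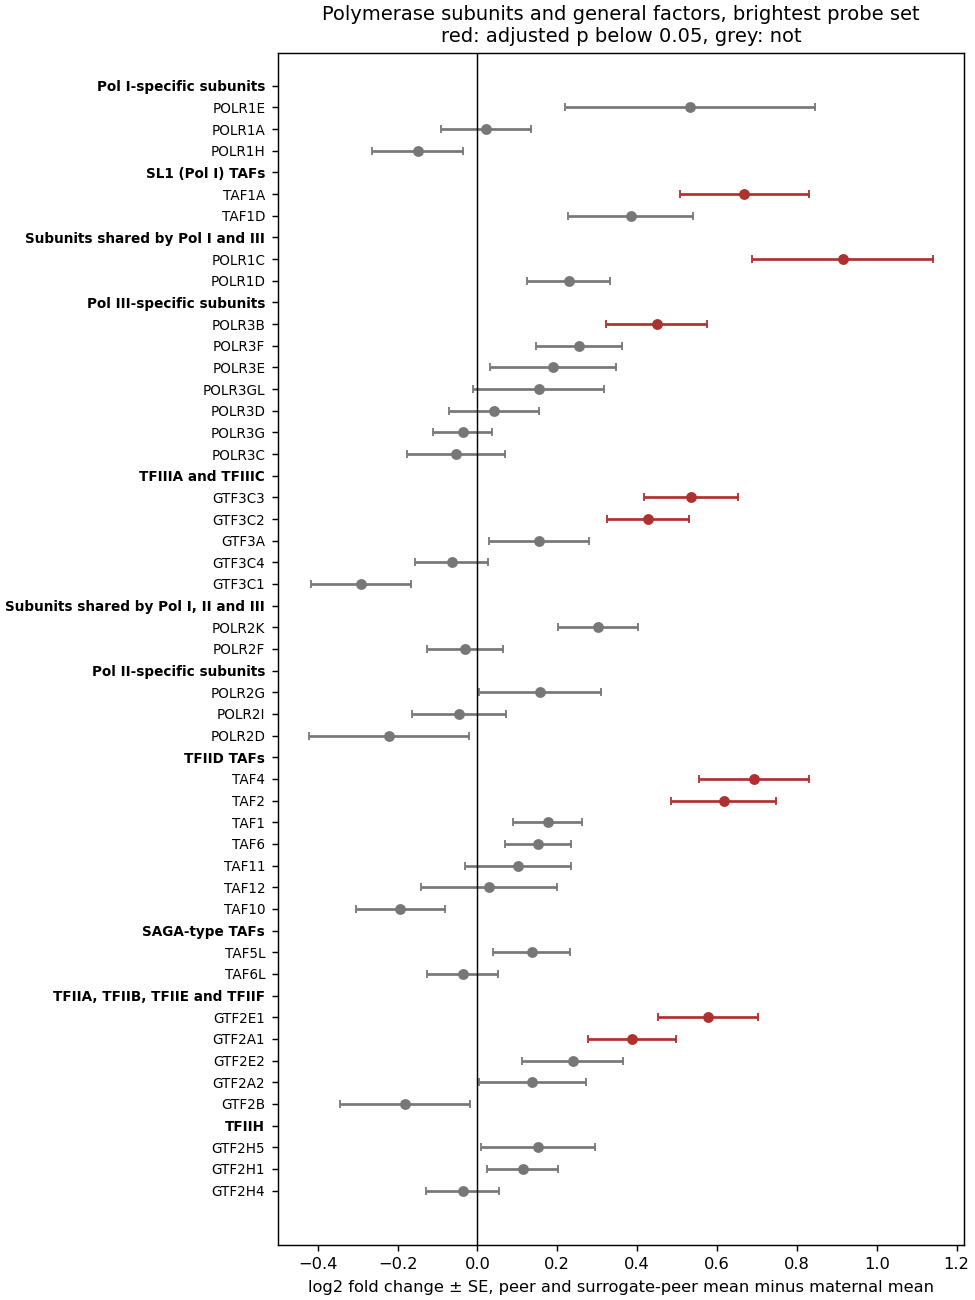
Log2 fold change (horizontal axis, point) with standard error (bar) of the mean of peer and surrogate-peer arrays against maternal arrays, for the 41 tested genes at their brightest probe set, grouped by complex. Red points passed an adjusted p of 0.05: 9 genes, with POLR1C farthest to the right at 0.91, while subunits found in polymerase II alone lay between -0.22 and 0.16.

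The subunits shared by polymerases I and III held the largest difference. POLR1C encodes an alpha-like subunit on which both enzymes assemble. Its brightest probe set read 8.64, 7.57, 8.52, 8.40 and 7.29 in maternal arrays, 9.66, 9.66, 9.62 and 8.98 in peer arrays and 8.74, 8.32, 8.55 and 8.45 in surrogate-peer arrays. Its dimmer probe set read 7.60, 7.05, 7.45, 7.27 and 6.95 in maternal arrays, 8.52, 8.5, 8.44 and 7.95 in peer arrays and 7.68, 7.39, 7.69 and 7.59 in surrogate-peer arrays. At both probe sets every peer value lay above every maternal and every surrogate-peer value, and the peer ranges did not touch the other ranges. The surrogate-peer range overlapped the upper part of the maternal range at both. The mean of the non-maternal groups exceeded the maternal mean by 0.91 ± 0.23 (SE), adjusted p = 0.0347 at the brightest probe set and by 0.71 ± 0.13 (SE), adjusted p = 0.0209 at the dimmer one.

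Split by group, POLR1C was higher in peer than in maternal arrays by 1.40 ± 0.27 (SE), adjusted p = 0.0492, a 2.63-fold change, and by 1.09 ± 0.15 (SE), adjusted p = 0.0343 at the dimmer probe set. The call at the brightest probe set held in 1 of 13 fits that left out an array and in 2 of 7 other alternatives, with adjusted p of 0.00574 to 0.167 over the former and 0.0222 to 0.107 over the latter. Against the same maternal arrays the surrogate-peer difference was 0.43 ± 0.27 (SE), adjusted p = 0.375 at the brightest probe set and 0.33 ± 0.15 (SE), adjusted p = 0.250 at the dimmer one, neither called. Surrogate-peer minus peer gave -0.96 ± 0.28 (SE) and -0.76 ± 0.16 (SE), with unadjusted limma p of 0.00456 and 0.000425. After adjustment over all tested probe sets neither passed (adjusted p = 0.9999 and 0.9999). POLR1C was the member gene whose surrogate-peer range lay wholly below its peer range, 1 of 41 genes (2.44%), against 0.942% of all tested genes.

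POLR1D, the partner of POLR1C, was not called at either probe set. Its brightest probe set gave 0.23 ± 0.10 (SE), adjusted p = 0.164 and was highest in peer array 4 (11.61). Its dimmer probe set had the opposite sign, -0.87 ± 0.42 (SE), adjusted p = 0.185. That probe set ranged from 5.62 to 8.22 in maternal arrays and from 5.17 to 7.11 in the others, so the groups overlapped widely.

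**Figure D2:**
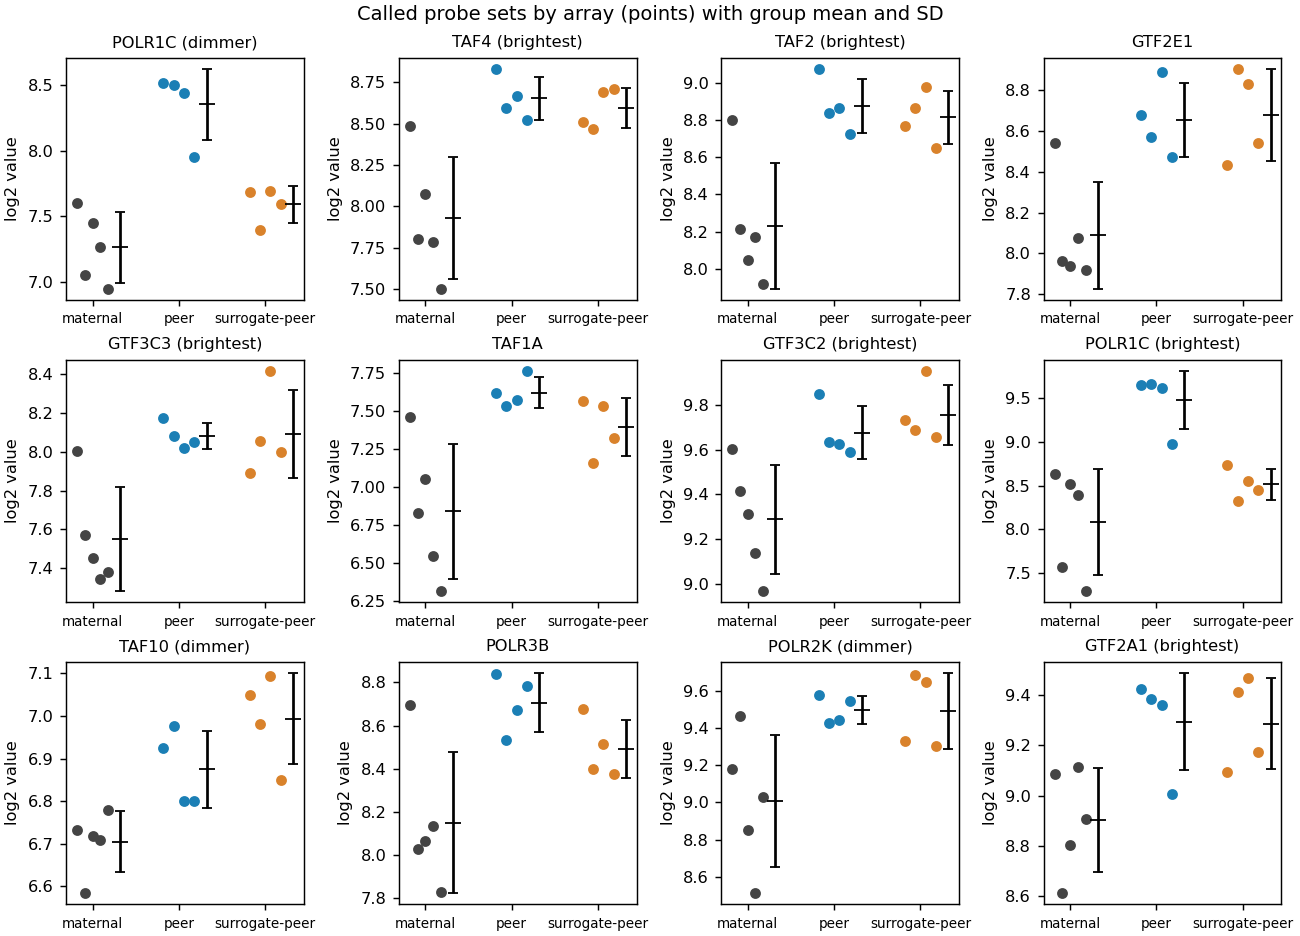
Log2 values of the 12 called probe sets on each array (points; vertical axes start at different values), with the mean and SD of each group beside them (5 maternal, 4 peer and 4 surrogate-peer arrays). POLR1C stands highest in peer arrays alone, while TAF4, TAF2, GTF2E1 and GTF3C3 are at like levels in both non-maternal groups and 1 maternal array reaches toward them.

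Among genes specific to polymerase I, the promoter factor SL1 held the call. TAF1A, an SL1 subunit, read 7.46, 6.83, 7.05, 6.54 and 6.31 in maternal arrays, 7.62, 7.53, 7.57 and 7.76 in peer arrays and 7.57, 7.16, 7.53 and 7.32 in surrogate-peer arrays. All 4 peer values lay above the maternal ones, and maternal array 1 lay within the surrogate-peer range. The non-maternal mean was higher by 0.67 ± 0.16 (SE), adjusted p = 0.0327, a 1.59-fold change. TAF1D, another SL1 subunit, gave 0.38 ± 0.16 (SE), adjusted p = 0.130. Of the polymerase I subunits, 0 of 3 tested were called. POLR1A, the largest catalytic subunit, read 7.67, 7.52, 7.87, 7.46 and 7.22 in maternal arrays, 7.76, 7.57, 7.33 and 7.83 in peer arrays and 7.60, 7.38, 7.55 and 7.55 in surrogate-peer arrays, and its groups overlapped throughout (0.02 ± 0.11 (SE), adjusted p = 0.911). POLR1E gave 0.53 ± 0.31 (SE), adjusted p = 0.269, with maternal values from 8.36 to 10.32, and POLR1H, a small subunit, gave -0.15 ± 0.11 (SE), adjusted p = 0.393.

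For polymerase III, 1 of 7 specific subunits was called. POLR3B, the second largest subunit and part of the catalytic site, read 8.70, 8.03, 8.06, 8.14 and 7.83 in maternal arrays, 8.84, 8.53, 8.67 and 8.78 in peer arrays and 8.68, 8.40, 8.52 and 8.38 in surrogate-peer arrays. Maternal array 1 lay within the range of the non-maternal arrays and the other 4 maternal values lay below it. The difference was 0.45 ± 0.13 (SE), adjusted p = 0.0480. POLR3F (0.25), POLR3E (0.19), POLR3GL (0.15) and POLR3D (0.04) had positive values that did not pass, and POLR3G (-0.04) and POLR3C (-0.05) had values just below 0. The dimmer tested probe sets of POLR3C were positive, at 0.06 and 0.27, and were not called. POLR3E was measured by 4 tested probe sets, which ran from 0.15 to 0.39. The list's median was 0.15 for both groups together, 0.16 in peer and 0.01 in surrogate-peer arrays.

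TFIIIC, which binds the internal promoters of transfer RNA genes, had 2 of 4 tested subunits called. GTF3C3 read 8.01, 7.57, 7.45, 7.35 and 7.38 in maternal arrays, 8.17, 8.08, 8.02 and 8.05 in peer arrays and 7.89, 8.06, 8.42 and 8.0 in surrogate-peer arrays. The peer arrays were all above the maternal ones. Surrogate-peer array 1 lay below maternal array 1, and surrogate-peer array 4 just below it. The difference was 0.54 ± 0.12 (SE), adjusted p = 0.0265. Its 2 other tested probe sets gave 0.49 ± 0.14 (SE), adjusted p = 0.0502, just short of the threshold, and 0.29 ± 0.25 (SE), adjusted p = 0.438.

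GTF3C2, also of TFIIIC, read 9.60, 9.42, 9.31, 9.14 and 8.97 in maternal arrays, 9.85, 9.63, 9.62 and 9.59 in peer arrays and 9.73, 9.69, 9.95 and 9.65 in surrogate-peer arrays. Surrogate-peer values lay wholly above maternal values, the lowest peer value lay just under maternal array 1, and the difference was 0.43 ± 0.10 (SE), adjusted p = 0.0332. A dimmer probe set of GTF3C2 gave 0.07 ± 0.09 (SE), adjusted p = 0.613. GTF3C1, the largest subunit of the same complex, had a negative difference that did not pass (-0.29 ± 0.13 (SE), adjusted p = 0.147), and GTF3C4 gave -0.06. GTF3A, which is TFIIIA and serves the 5S gene, gave 0.15.

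The subunits found in all 3 polymerases and those of polymerase II alone had 0 of 5 genes called at the brightest probe set. POLR2K, a small shared subunit, gave 0.30 ± 0.10 (SE), adjusted p = 0.0753 there. Its dimmer probe set was called (0.49 ± 0.14 (SE), adjusted p = 0.0483) and read 9.18, 9.46, 8.85, 8.51 and 9.03 in maternal arrays, 9.58, 9.43, 9.44 and 9.54 in peer arrays and 9.33, 9.69, 9.65 and 9.30 in surrogate-peer arrays. With the 3′ to 5′ signal ratio of the control probe sets as a covariate its difference was 0.15, adjusted p = 0.595, and the call held in 0 of 6 alternatives, this one included, and in 2 of 13 fits that left out an array. Maternal array 2 reached the level of the non-maternal arrays, and the other 4 maternal values were lower than all of them. POLR2F, also shared, gave -0.03. Of polymerase II subunits, POLR2G gave 0.16 and 0.19 at 2 probe sets, POLR2I gave -0.05 and POLR2D gave -0.22. The probe set of POLR2A, the largest subunit with the repeated C-terminal tail, was too dim to be tested and read 5.49, 5.5, 5.53, 5.46 and 5.61 in maternal arrays, 5.44, 5.39, 5.44 and 5.28 in peer arrays and 5.41, 5.52, 5.42 and 5.53 in surrogate-peer arrays.

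In TFIID, which binds core promoters of polymerase II, TAF4 and TAF2 rose, 2 of 7 tested genes. TAF4 read 8.48, 7.80, 8.07, 7.79 and 7.5 in maternal arrays, 8.83, 8.59, 8.66 and 8.52 in peer arrays and 8.51, 8.47, 8.69 and 8.71 in surrogate-peer arrays. Maternal array 1 lay within the surrogate-peer range and all peer values were above every maternal value. The difference was 0.69 ± 0.14 (SE), adjusted p = 0.0231, a 1.62-fold change. TAF2 read 8.80, 8.21, 8.05, 8.17 and 7.92 in maternal arrays, 9.08, 8.84, 8.87 and 8.73 in peer arrays and 8.77, 8.87, 8.98 and 8.65 in surrogate-peer arrays. Maternal array 1 again lay among the non-maternal values, and the difference was 0.62 ± 0.13 (SE), adjusted p = 0.0249. A second probe set of TAF2, of almost the same mean signal, gave 0.05 ± 0.09 (SE), adjusted p = 0.731 and was not called.

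The other TFIID genes did not pass at their brightest probe set. TAF1, the largest subunit, gave 0.18, and its 2 other tested probe sets gave 0.28 and 0.32. TAF6 gave 0.15, TAF11 0.10 and TAF12 0.03. TAF10, which TFIID shares with the coactivator SAGA, gave -0.19 ± 0.11 (SE), adjusted p = 0.261 at the brightest probe set and 0.23 ± 0.06 (SE), adjusted p = 0.0477 at a dimmer one. That dimmer probe set read 6.73, 6.58, 6.72, 6.71 and 6.78 in maternal arrays, 6.92, 6.98, 6.80 and 6.80 in peer arrays and 7.05, 6.98, 7.09 and 6.85 in surrogate-peer arrays, with every non-maternal value above every maternal value. It was 1 of 61 member probe sets (1.64%) whose non-maternal range lay wholly above the maternal one, against 1.89% of all tested probe sets. The non-maternal range lay wholly below for 0 member probe sets, against 0.971%. The SAGA genes TAF5L (0.14) and TAF6L (-0.04) did not pass.

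Of the remaining polymerase II factors, GTF2E1 and GTF2A1 rose. GTF2E1, the large subunit of TFIIE, read 8.54, 7.96, 7.94, 8.08 and 7.92 in maternal arrays, 8.68, 8.57, 8.89 and 8.47 in peer arrays and 8.44, 8.90, 8.83 and 8.54 in surrogate-peer arrays. Maternal array 1 lay within the peer and surrogate-peer ranges and the other 4 maternal values were lower than both. The difference was 0.58 ± 0.13 (SE), adjusted p = 0.0255. GTF2A1, the precursor of the large TFIIA subunits, read 9.09, 8.61, 8.80, 9.11 and 8.90 in maternal arrays, 9.43, 9.38, 9.36 and 9.01 in peer arrays and 9.09, 9.41, 9.47 and 9.18 in surrogate-peer arrays. Peer array 4 and surrogate-peer array 1 lay within the maternal range, and the difference was 0.39 ± 0.11 (SE), adjusted p = 0.0489. The partners GTF2E2 (0.24) and GTF2A2 (0.14) did not pass, nor did GTF2B, which is TFIIB (-0.18). TFIIH had 0 of 3 called: GTF2H5 gave 0.15, GTF2H1 0.11 and GTF2H4 -0.04.

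Of the 15 genes with several tested probe sets, 12 had the same sign at all of them and 3 did not: POLR1D, POLR3C and TAF10. Of the 87 member probe sets, 7 carry a suffix of probes that may match more than 1 transcript, among them the brightest ones of POLR1D, POLR1H, TAF1D and GTF3A.

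Each non-maternal group was then set against the maternal arrays alone; both comparisons use the same maternal arrays. In peer arrays 1 of 41 genes was called, POLR1C, against 0.166% of all tested genes called higher, and 2 of 61 probe sets, both of POLR1C, against 0.311% of all tested probe sets. At an unadjusted p under 0.05 there were 13 of 41 genes (31.7%), all higher. Of all tested genes 16.8% were higher and 9.05% lower at that threshold, 25.8% in either direction. The peer range lay wholly above the maternal one for GTF3C3, POLR1C, TAF1A and TAF4, 4 of 41 genes (9.76%), against 5.13%. In surrogate-peer arrays limma called 0 of 41 genes and 0% of all tested genes. There, 9 members were higher and 1 was lower at an unadjusted p under 0.05, 24.4% of the 41, against 20.1% of all tested genes in either direction. The surrogate-peer range lay wholly above the maternal one for GTF3C2, 1 of 41 genes (2.44%), against 2.69%. The smallest adjusted p of a member was 0.0945, for TAF4. TAF4 gave 0.72 in peer and 0.66 in surrogate-peer arrays, GTF2E1 0.57 and 0.59, and TAF2 0.65 and 0.59. The median over the 41 genes was 0.17 in peer and 0.12 in surrogate-peer arrays. It was 0.105 and 0.0488 without maternal array 5, against 0.00075 and 0.00725 over all tested probe sets. After quantile normalization it was 0.103 and 0.0525, against -0.024 and -0.0173.

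**Figure D3:**
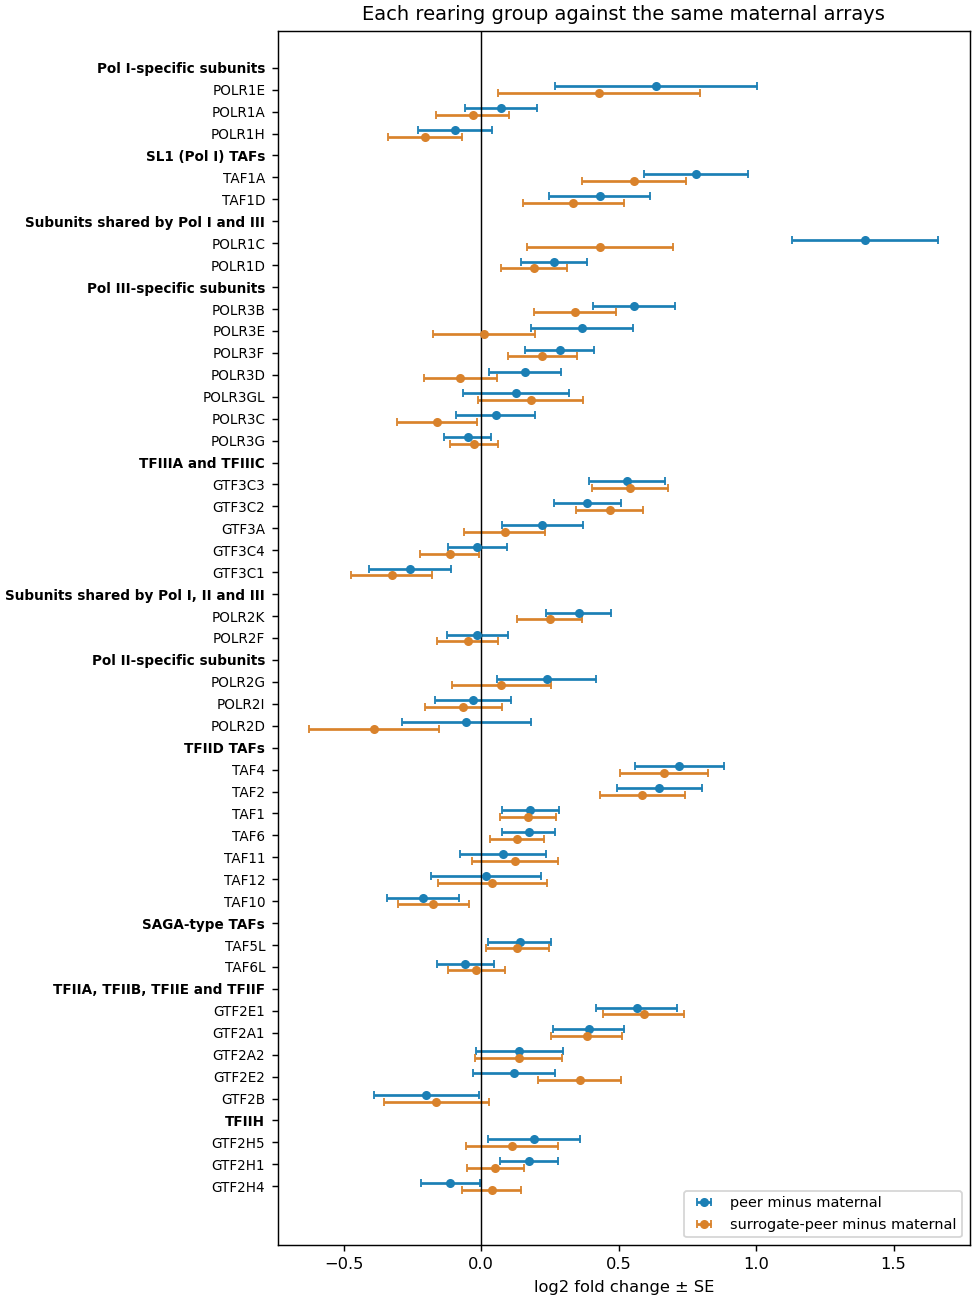
Log2 fold change with standard error of the peer group (blue) and the surrogate-peer group (orange) against the same 5 maternal arrays, for the 41 tested genes at their brightest probe set. POLR1C lies at 1.40 in peer and 0.43 in surrogate-peer arrays, while the paired points of TAF4, TAF2, GTF2E1 and GTF3C3 nearly coincide.

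The direct comparison of surrogate-peer with peer arrays called 0 members and 0% of all tested genes by limma. At an unadjusted p under 0.05 there was 1 of 41 genes, POLR1C (2.44%), against 1.87%. The differences were negative for 29 of 41 genes, against 52.9% of all tested genes, and the median was -0.06. With the 3′ to 5′ ratio as a covariate 18 of the 41 were positive and the median was -0.00498. Without surrogate-peer array 4 there were 17 positive values and a median of -0.0196, and without peer array 1 there were 17 and -0.0481. The median was -0.0345 without peer array 4. Polymerase subunits had 15 of 17 negative values and a median of -0.11, and general factors 14 of 24 and -0.01. Polymerase III subunits had 5 of 7 negative values and a median of -0.21, with POLR3E at -0.36 ± 0.20 (SE). The median standard error in this comparison was 0.15.

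Genes that work with these enzymes but do not match the rule were read in the same fit. Over all tested genes 6.30% were called higher and 1.69% lower, and no set test was run on these lists. Of 12 tested genes for polymerase assembly and C-terminal tail phosphatases, 4 rose against maternal arrays and 0 fell. The 3 of smallest p were RPRD1A, which binds the tail of polymerase II (0.52 ± 0.11, SE), and the tail phosphatases RPAP2 (0.36 ± 0.08, SE) and CTDSP2 (0.44 ± 0.12, SE). The list's median was 0.27. Among 19 pausing and elongation genes, 4 were called higher and 0 lower. The 3 of smallest p were CTR9 (0.40) and LEO1 (0.72), subunits of the PAF elongation complex, and CDK12 (0.39), a kinase of the tail. The median of this list was 0.01 and 9 of its 19 values were negative. The most negative, MEPCE (-0.67 ± 0.19, SE), had an adjusted limma p of 0.0521, just short of the threshold.

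Mediator, the bridge between activators and polymerase II, had 3 of 25 tested genes up and 0 down: MED6 (0.62), MED14 (0.42) and MED22 (0.30), with a list median of 0.09. Of 8 genes for TBP, TFIIIB and the SNAP complex of small nuclear RNA promoters, SNAPC3 (0.38) rose and the median was -0.03. With lists this small, counts such as these lie within a few genes of the 6.30% called higher over all tested genes. The 4 tested TFIIH genes outside the rule and the 3 other polymerase I factors had 0 called, with medians of 0.24 and 0.13.

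The maternal arrays differed most among themselves. At 11 of the 12 called probe sets the SD was largest in the maternal group, so an estimate of spread shared by all groups understates the maternal error there. TAF4, for instance, averaged 7.93 with an SD of 0.37 over the 5 maternal arrays, 8.65 with an SD of 0.13 over the 4 peer arrays, and 8.60 with an SD of 0.12 over the 4 surrogate-peer arrays. Maternal array 1 was the highest maternal array at 9 of the 12 called probe sets and maternal array 5 the lowest at 8. Over all 1751 probe sets called higher, these shares were 75.8% and 43.6%. Each log2 value was set against its gene's mean over all arrays, and the median of these deviations over the 41 genes was -0.34 on maternal array 5, against -0.10 for all tested genes on that array. On the other arrays it lay between -0.10 and 0.19.

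**Figure D4:**
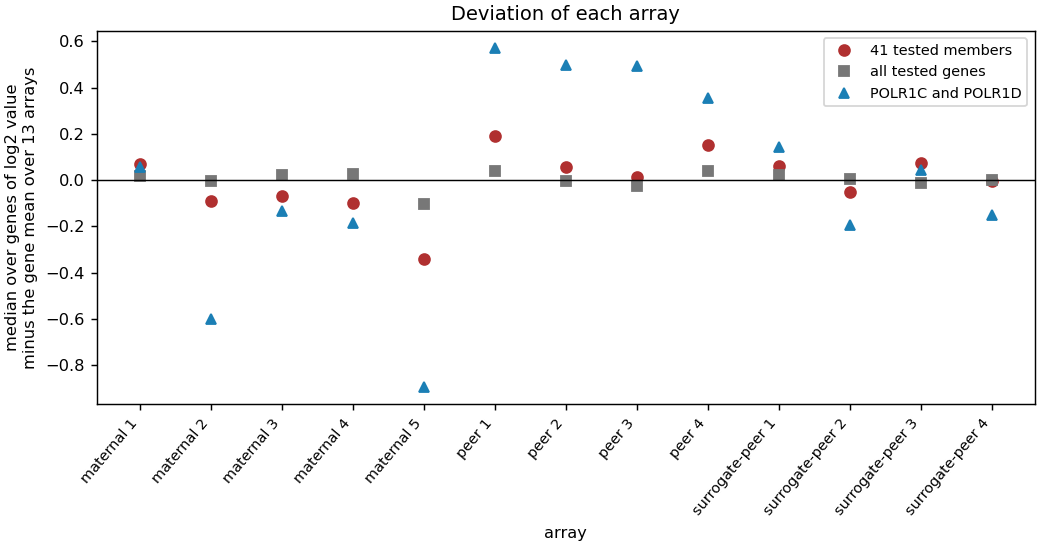
For each of the 13 arrays (horizontal axis), the median over genes of the log2 value minus that gene's mean over all arrays (vertical axis), for the 41 tested members (red circles), all tested genes (grey squares) and the pair POLR1C and POLR1D (blue triangles). Maternal array 5 is lowest for members at -0.34. The value of the pair, an average of 2 genes, is highest on the 4 peer arrays, from 0.36 to 0.57. POLR1D alone was not set apart there: it read 11.36, 11.211, 11.245 and 11.609 on peer arrays, against 11.354 on maternal array 1 and 11.431 on surrogate-peer array 1.

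Leaving out 1 array at a time changed the 9 calls against maternal arrays. Dropping each maternal array in turn, from array 1 to array 5, left 10, 5, 6, 0 and 0 called genes. Dropping each peer array left 0, 4, 4 and 6. Dropping each surrogate-peer array left 5, 7, 2 and 6. Calls over all tested probe sets, in either direction, numbered 2107 with all arrays. Without each maternal array they numbered 4823, 1218, 1198, 30 and 60. They numbered 309, 715, 985 and 886 without each peer array, and 1376, 1322, 474 and 1221 without each surrogate-peer array. Over the 13 such fits TAF4 and GTF3C3 each kept their call in 10, and GTF2E1 and TAF2 in 9. POLR3B kept it in 1 and GTF2A1 in 2. POLR1C kept it in 4 at its brightest probe set, with differences from 0.72 to 1.05 and adjusted p up to 0.0771. At its dimmer probe set it kept it in 11, with differences from 0.63 to 0.79. Without maternal arrays 2 and 5, whose monocyte scores were the highest of all arrays, 0 of 41 members were called. Over all tested probe sets 37 were called in that fit, against 2107 with all arrays. All 9 differences then stayed positive, from 0.29 for GTF2A1 to 0.51 for TAF4. That of POLR1C was 0.48 at the brightest probe set, against 0.91 with all arrays, and 0.53 at the dimmer one. The single call in peer arrays was lost in 12 of the 13 fits. Without maternal array 1 there were 9 calls in peer and 7 in surrogate-peer arrays. Over all tested probe sets that fit called 3484 and 2095, against 93 and 0 with all arrays.

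**Figure D5:**
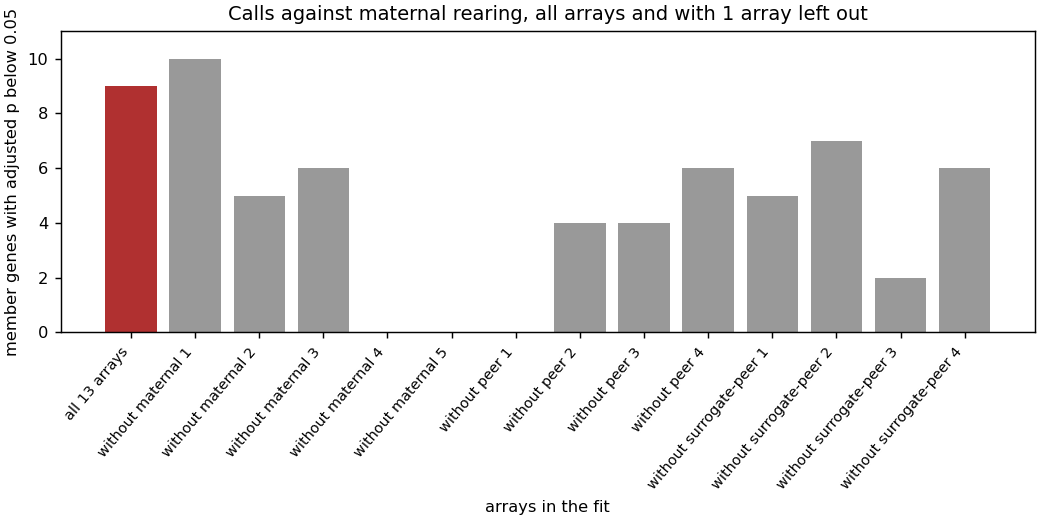
Number of member genes, of the 41 tested with all arrays, called higher at their brightest probe set in the non-maternal against the maternal groups (vertical axis), with all 13 arrays (red) and with 1 array left out (grey, horizontal axis). The count is 9 with all arrays, 0 without maternal array 4, maternal array 5 or peer array 1, and 10 without maternal array 1. Calls over all tested probe sets were 2107 with all arrays and 30, 60, 309 and 4823 in those fits, in the same order.

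Group means of an RNA quality measure and of several marker lists differed between maternal and other arrays, with overlap. The log2 ratio of 3′ to 5′ signal of the actin and GAPDH control probe sets was 1.86 ± 0.28 (SD, n = 5) in maternal and 1.47 ± 0.14 (SD, n = 8) in the other arrays. Maternal arrays 2 and 5, at 1.55 and 1.61, lay within the range of the other arrays, 1.33 to 1.74. With this ratio as a covariate 4 of the 41 members were called against maternal arrays, all higher and all among the 9. Over all tested probe sets 1632 were called in that fit, against 2107 without the covariate. POLR1C then had a difference of 1.57, while that of POLR2K at its dimmer probe set was 0.15. Natural killer and cytotoxic markers were lower in non-maternal arrays at 5 of 5 tested genes, 3 of them called, with mean deviations of 0.35 to 1.13 in maternal, -1.06 to 0.38 in peer and -0.75 to 0.49 in surrogate-peer arrays. Of the T cell markers, TRAT1 gave 0.71 and CD28 0.03, neither called. Mean deviations of the T cell list, which includes BCL11B, ranged from -0.50 to 0.11, 0.05 to 0.35 and 0.01 to 0.56. Monocyte markers were negative at 4 of 6 tested genes, 1 of them called, and ranged from -0.37 to 0.97, -0.34 to 0.10 and -0.69 to 0.31. Their mean difference from maternal arrays was -0.299 with all arrays and 0.108 without maternal arrays 2 and 5. B cell markers were negative at 5 of 5 tested genes, 0 of them called, and ranged from 0.02 to 1.09, -0.33 to 0.58 and -1.25 to -0.19. Markers of all 4 lineages were above the filter, as were the platelet genes PF4 and PPBP and the erythroid gene HBB. The T cell markers tested were CD28, TRAT1 and BCL11B. BCL11B read 5.64 to 6.23 in maternal arrays, 4 of 5 of them under the filter of 6.04. It passed that filter through the groups where it was high. Neither its sign nor its call is counted here, and the ranges of the T cell list rest partly on it. Of 7 T cell markers listed, only these 3 had a probe set paired with 1 symbol, so the CD3 genes and CD2 could not be read. The part of cell makeup in the members' differences was not tested.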

How the data were processed

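Expression was measured in blood mononuclear cells on rhesus macaque oligonucleotide arrays, 1 array per sample. The authors deposited 1 log2 value per probe set and array, made with RMA per the submitters' processing notes; the labels give neither its version nor whether all arrays were normalized together. The low number of arrays limits the precision. Groups were taken from the sample labels. After 158 control probe sets were left out, limma 3.58.1 (R 4.3.3) was fitted to all 13 arrays with 1 mean per group, on probe sets with a mean above 6.04, and p-values were adjusted by Benjamini-Hochberg over the 26352 tested. The fit was also run on simulated data with independent arrays and the same spread in all groups. At most called probe sets the maternal spread was the largest, so that run does not bear on the calls. Gene names come from the platform annotation, which can be old; 51 of the 52 member genes had an identifier in the RefSeq gene table with the same symbol. Every member could be named. Values in every array are given for called members and for the largest 2 subunits of each polymerase where measured, and at most 3 called genes are named with values per related list. The members, the lists and the tests were chosen with earlier results of these data known. Alternatives tried were no filter, centring on the array median, quantile normalization, array weights, only the arrays compared, the 3′ to 5′ ratio as a covariate, and leaving out arrays.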

Additional observations from a re-analysis of the deposited data

Results flagged for a closer look

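Within the groups of 4 or 5 arrays, 5 values stood far from the rest of their group by Dixon's criterion, out of 42 groups checked over 14 probe sets; chance sets apart about 1 in 20. Peer array 4 was the lowest peer array for POLR1C, at 8.98 for the brightest probe set and 7.95 for the dimmer one. It was also the lowest for GTF2A1, at 9.01. Maternal array 1 was the highest maternal array for GTF2E1, at 8.54. Peer array 1 was the highest peer array for GTF3C2, at 9.85. All 5 are log2 values, and all were kept in the fit.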

How the results depend on the processing

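Called genes and probe sets are given in that order. For the non-maternal groups against maternal, 9 and 12 became 5 and 6 under quantile normalization, 4 and 5 with the 3′ to 5′ ratio as a covariate, and 0 and 0 without maternal arrays 2 and 5; no filter, centring and array weights kept both counts within 1.5 times. Over all tested probe sets, 2107 calls became 1337 under quantile normalization, 1632 with the covariate and 37 without maternal arrays 2 and 5. For peer against maternal, 1 and 2 became 0 and 1 with no filter, centring or quantile normalization. They became 7 and 9 with array weights and 4 and 5 with the covariate. With only the arrays compared or without maternal arrays 2 and 5 they became 0 and 0. Over all tested probe sets, 93 calls became 50, 5, 6, 1543, 1478, 0 and 3, in the order named. The cause was not tested. With 1 array left out, the counts ranged from 0 to 10 and 0 to 18 for the non-maternal groups, 0 to 9 and 0 to 12 for peer, and 0 to 7 and 0 to 8 for surrogate-peer, where the single gain came without maternal array 1. Over all tested probe sets the calls in these fits ranged from 30 to 4823, 0 to 3484 and 0 to 2095. Surrogate-peer against peer stayed at 0 in every alternative run. The differences of the 12 called probe sets stayed positive in every alternative run. After centring or quantile normalization 26 of the 41 genes were positive, against 29 as deposited. Of all tested probe sets 42.5% and 46.2% were then positive, against 51% as deposited. Of all calls against maternal, 83.1% were higher as deposited, 56.7% after centring and 66.3% after quantile normalization; all called members were higher in each. No paired analysis was possible because replicate numbers only follow the order of the samples and mark no shared animal or day.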
